A study of Mus musculus with 8 samples.

Results

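The genes of the mouse major histocompatibility complex (MHC, named H2 in the mouse) and the genes that load peptides on MHC molecules made up 46 of the 21626 genes measured on the arrays. They were chosen by name and by no measured difference. A gene belonged to the group when its symbol in the deposited table began with H2- or was B2m, Cd74, Ciita, Tap1, Tap2 or Tapbp. Where a gene had several probe sets (the sets of oligonucleotides that report 1 transcript), the brightest of them, by its mean in the 8 samples, stood for it. The 46 genes comprised 29 class I heavy chain genes, 10 class II genes, the class I light chain B2m with 3 genes of peptide transport and loading, the class II regulator Ciita, and 2 genes of the K region that encode no MHC molecule, H2-Ke2 and H2-Ke6.

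RNA was measured on Affymetrix arrays in 4 gastric adenocarcinomas, which arose spontaneously in mice carrying a transgene, and in 4 samples of normal gastric mucosa. Values are log2 RMA values (robust multi-array average, in which 1 unit is a 2-fold difference), and each difference is adenocarcinoma minus normal mucosa. The labels name no transgene, promoter, allele, strain, sex or age, do not say whether the normal mice carried the transgene, and do not state that the samples came from separate animals, so the p-values measure only the spread between these samples. Xist lay at 6.2 to 6.6 in the adenocarcinomas, against 11.6 to 12.7 in normal mucosa, and the Y-linked Eif2s3y at 9.2 to 11.0 and 5.1 to 5.3, so that sex and tissue cannot be told apart. Inbred strains carry different H2 haplotypes, whose alleles differ in sequence, and with no strain in the labels a difference of haplotype cannot be told apart from a difference of expression either. Of the gastric mucosa markers examined, 8 of 10 fell, led by Atp4b (-5.88), Atp4a (-5.28) and Muc5ac (-4.80), and none rose. Of 6 epithelial markers, the claudin Cldn7 (3.35), the adhesion molecule Epcam (0.60) and the keratin Krt18 (0.425) rose, the cadherin Cdh1 fell by 3.23, and the keratins Krt8 and Krt19 were not called.

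MHC class I molecules pair a heavy chain with the light chain beta-2 microglobulin and show peptides from the cytosol to CD8 T cells. The peptides are cut by the proteasome, carried into the endoplasmic reticulum by the transporter Tap1-Tap2 and fitted with the help of tapasin, encoded by Tapbp, and nearly every nucleated cell makes them. MHC class II molecules are pairs of an alpha and a beta chain that show peptides from endosomes to CD4 T cells. They are made mainly by B cells, dendritic cells and macrophages, and by other cells, gastric epithelium included, under interferon gamma. The invariant chain Cd74 fills their groove until H2-DM exchanges its remnant for a peptide, H2-O restrains H2-DM, and the coactivator Ciita switches the class II genes on, as Nlrc5 does for class I.

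Promoter windows from 250 bases before to 50 bases after the gene's start were at hand for 32 of the 46 genes (35 windows, RefSeq, assembly GRCm38.p6). They are shown with the X and Y boxes described for class II and the kappa B and interferon-stimulated elements described for class I. None of these elements is taken to be confined to either class. In the class II windows below, capitals mark GCAAC, the core of the X box, and ATTGG, the Y box, or the reverse complement of either.
H2-Aa, chr17:34287774-34288073, minus strand: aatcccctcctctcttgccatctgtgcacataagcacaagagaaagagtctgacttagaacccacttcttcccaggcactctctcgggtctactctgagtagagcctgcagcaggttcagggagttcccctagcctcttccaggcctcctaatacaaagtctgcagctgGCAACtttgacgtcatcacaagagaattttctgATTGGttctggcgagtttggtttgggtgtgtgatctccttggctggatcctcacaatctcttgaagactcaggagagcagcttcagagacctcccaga
H2-Eb1, chr17:34305617-34305916, plus strand: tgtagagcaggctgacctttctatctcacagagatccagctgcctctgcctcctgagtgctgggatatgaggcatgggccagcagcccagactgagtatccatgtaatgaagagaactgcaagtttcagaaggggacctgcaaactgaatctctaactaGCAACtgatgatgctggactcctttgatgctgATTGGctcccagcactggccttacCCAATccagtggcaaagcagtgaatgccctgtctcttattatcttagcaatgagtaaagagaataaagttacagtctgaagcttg
H2-Ob, chr17:34238655-34238954, plus strand: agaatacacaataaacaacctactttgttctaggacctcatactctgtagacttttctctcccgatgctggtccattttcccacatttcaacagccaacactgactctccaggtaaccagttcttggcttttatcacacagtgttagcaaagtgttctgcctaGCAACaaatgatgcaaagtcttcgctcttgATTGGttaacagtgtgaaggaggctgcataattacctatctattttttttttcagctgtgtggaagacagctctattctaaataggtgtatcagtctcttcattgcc
In the class I windows, capitals mark GGGGATTCCCC, a kappa B element, AGTTTCACTT, the core of the interferon-stimulated element, and ATTGG, or the reverse complement of any of them.
H2-K1, chr17:34000298-34000597, minus strand: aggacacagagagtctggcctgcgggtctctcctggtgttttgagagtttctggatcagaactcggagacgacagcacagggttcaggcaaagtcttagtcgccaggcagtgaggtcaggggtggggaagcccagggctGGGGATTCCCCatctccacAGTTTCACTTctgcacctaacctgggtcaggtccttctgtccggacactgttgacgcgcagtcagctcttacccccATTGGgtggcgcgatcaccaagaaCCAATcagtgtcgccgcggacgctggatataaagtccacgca
H2-D1, chr17:35262844-35263143, plus strand: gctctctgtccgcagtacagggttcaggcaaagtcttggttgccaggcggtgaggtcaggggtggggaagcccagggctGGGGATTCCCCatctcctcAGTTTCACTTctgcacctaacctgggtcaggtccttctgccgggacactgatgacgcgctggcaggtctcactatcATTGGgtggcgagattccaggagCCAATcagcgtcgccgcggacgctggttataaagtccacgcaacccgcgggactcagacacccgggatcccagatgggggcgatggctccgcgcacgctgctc
H2-M3, chr17:37269984-37270283, plus strand: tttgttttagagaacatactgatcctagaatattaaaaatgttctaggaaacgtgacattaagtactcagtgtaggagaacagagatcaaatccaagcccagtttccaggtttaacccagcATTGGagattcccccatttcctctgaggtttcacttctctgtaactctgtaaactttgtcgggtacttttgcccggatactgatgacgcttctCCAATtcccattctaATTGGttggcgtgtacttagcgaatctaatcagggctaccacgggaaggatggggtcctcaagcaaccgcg
The letters were chosen after the windows were read and were searched on both strands. GGGGATTCCCC and AGTTTCACTT were copied from the window of H2-K1 itself. The match of H2-K1 was therefore fixed in advance and near copies of this gene were favoured, so the class I counts are no test of enrichment. GCAAC and ATTGG were likewise chosen with the class II windows known, so the class II counts are no such test either. GCAAC followed by ATTGG on the same strand, with 5 to 55 bases between them, stood in 5 of the 7 class II genes with a window (H2-Aa, H2-Eb1, H2-Eb2, H2-Oa and H2-Ob), in 0 of 21 class I heavy chain genes and in 2.09% of all 32851 windows. Only these exact letters were searched, so the count of 0 does not show that class I windows lack an X box. GGGGATTCCCC stood in 3 class I genes (H2-K1, H2-D1 and H2-Q6) and in 0.0304% of all windows. AGTTTCACTT stood in 7 class I genes, in none of the class II genes and in 0.14% of all windows. ATTGG alone stood in 18 of 21 class I genes and in all 7 class II genes, against 37.4% of all windows, so the Y box did not part the classes. The window of H2-M3, a class I gene that rose, held neither GGGGATTCCCC nor AGTTTCACTT exactly. It did hold close variants of both, GGAGATTCCCC and GGTTTCACTT, in the same order as in H2-K1. The first ATTGG marked in it overlaps the former variant. Such matches describe these windows only. They did not follow the calls: of the 5 class II genes with GCAAC then ATTGG, H2-Aa alone was called higher. H2-DMa and H2-DMb2 were called without such a match, and the called Cd74 and H2-Ab1 had no window.

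Of the 46 genes, 7 were called higher and 9 lower in adenocarcinoma by limma at a Benjamini-Hochberg adjusted p under 0.05, where 41.8% of all genes were called in either direction. The groups did not overlap for 5 genes that were higher and 9 that were lower, against 34.3% of all genes in either direction. The calls are given by class. Of the 10 class II genes, 5 rose and none fell, against 18.2% of all genes called higher and 23.6% called lower. Their median difference was 0.94, against -0.10 over all genes tested. The groups did not overlap for 4 of them, all higher in adenocarcinoma, where 15.8% of all genes were. Of the 29 class I heavy chain genes, 2 rose and 8 fell, against 18.2% and 23.6% of all genes, with a median of -0.20. The share that fell was thus near that of all genes. Over the 26 of them that exceeded background on at least 1 array, 2 rose and 7 fell, with a median of -0.225. The 4 genes of the class I light chain and of peptide loading gave no call, with a median of 0.06, and Ciita gave none.

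The invariant chain Cd74 had the largest difference of the 46 genes. It was at 9.8, 12.1, 10.9 and 10.2 in adenocarcinoma replicates 1 to 4 and at 8.2, 9.0, 8.2 and 9.1 in normal replicates 1 to 4. Every adenocarcinoma lay above every normal sample, replicate 2 far above the others. The mean rose from 8.63 ± 0.492 to 10.75 ± 1.01 (SD, n = 4 each), a difference of 2.13 ± 0.46 (SE) or 4.36-fold, with a limma adjusted p of 0.00715. In the deposited table Cd74 (probe set 10456005) lies on chromosome 18 from 60963502 to 60983106. The sources used here do not name the genome build of that table.

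The alpha and beta chains of the I-A molecule rose together. H2-Aa (probe set 10450154, chromosome 17 from 34419689 to 34424745 in the deposited table) was at 9.4, 11.5, 10.7 and 9.4 in adenocarcinoma and at 8.0, 8.7, 7.9 and 9.1 in normal mucosa. H2-Ab1 was at 9.9, 11.8, 10.6 and 9.5 against 8.2, 8.9, 8.6 and 9.4. In both genes the groups parted by a narrow margin, since normal replicate 4 came within 0.3 and 0.1 of the lowest adenocarcinoma. H2-Aa rose by 1.83 ± 0.485 (3.54-fold, limma adjusted p = 0.0173) and H2-Ab1 by 1.68 ± 0.463 (3.19-fold, adjusted p = 0.0201).

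The chains of the I-E molecule were less uniform. H2-Eb1 was at 9.2, 11.0, 10.0 and 9.0 in adenocarcinoma and at 8.7, 8.7, 8.8 and 9.0 in normal mucosa. Its replicate 4 reached only the highest normal value, and the difference of 1.0 ± 0.38 was not called (limma adjusted p = 0.0603). H2-Eb2 was at 6.9, 8.9, 7.4 and 7.1 against 7.0, 6.8, 7.0 and 7.0, a single high sample among values close to the normal ones (0.63 ± 0.377, adjusted p = 0.199). The alpha chain of this molecule is present here as H2-Ea-ps, whose symbol marks it as a pseudogene, at 6.5 to 7.0 in the adenocarcinomas, against 6.6 to 6.8 in normal mucosa (-0.05, adjusted p = 0.757). No difference was detectable for it at values little above the background probes, whose median was 6.0 to 6.4.

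**Figure D1:**
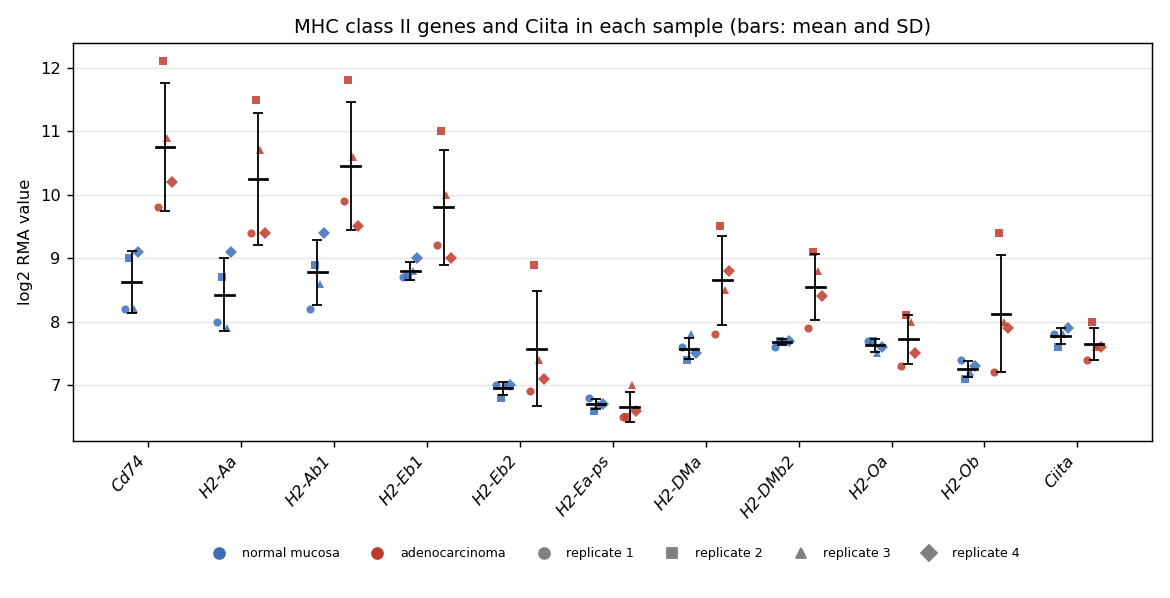
Log2 RMA values of the 10 class II genes and of Ciita in the 4 normal and 4 adenocarcinoma samples, with the mean and SD of each group. Adenocarcinoma replicate 2 (squares) is the highest adenocarcinoma in every gene shown except H2-Ea-ps, reaching 12.1 in Cd74, while Ciita stays between 7.4 and 8.0 in all 8 samples.

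The genes that load class II molecules followed in part. H2-DMa, the alpha chain of the peptide exchanger, was at 7.8, 9.5, 8.5 and 8.8 in adenocarcinoma and at 7.6, 7.4, 7.8 and 7.5 in normal mucosa. It rose by 1.08 ± 0.302 (limma adjusted p = 0.0215), although adenocarcinoma replicate 1 equalled normal replicate 3. H2-DMb2, a beta chain of the same exchanger, was at 7.9, 9.1, 8.8 and 8.4 against 7.6, 7.7, 7.7 and 7.7. Its groups did not overlap, and it rose by 0.88 ± 0.223 (adjusted p = 0.0144). It has a near copy in H2-DMb1, so its value is uncertain to the extent that their transcripts share probes. H2-Ob, the beta chain of the H2-DM inhibitor, which is found chiefly in B cells, was at 7.2, 9.4, 8.0 and 7.9 against 7.4, 7.1, 7.2 and 7.3. Replicate 1 lay within the normal range and the difference of 0.88 ± 0.384 was not called (adjusted p = 0.0925). H2-Oa, its alpha chain, was at 7.3, 8.1, 8.0 and 7.5 against 7.7, 7.7, 7.5 and 7.6 (0.10 ± 0.176, adjusted p = 0.66).

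The spread between the adenocarcinomas was wide. The SD of their class II values was 0.907 to 1.03 for Cd74, H2-Aa, H2-Ab1, H2-Eb1, H2-Eb2 and H2-Ob, while B2m had an SD of 0.163 in the same samples. Replicate 2 was the highest adenocarcinoma for 9 of the 10 class II genes, all but H2-Ea-ps. The order of the lowest samples changed from gene to gene: replicate 4 was lowest for H2-Ab1 and H2-Eb1 but second highest for H2-DMa, and replicate 1 was lowest for Cd74, H2-DMa, H2-DMb2, H2-Eb2, H2-Oa and H2-Ob. Without replicate 2 the same number of class II genes, 5, was called, with smaller differences of 1.68 for Cd74, 1.41 for H2-Aa, 1.23 for H2-Ab1, 0.79 for H2-DMa and 0.69 for H2-DMb2 (limma adjusted p of 0.00636 to 0.0311). Without it H2-Eb2 differed by 0.18 and H2-Ob by 0.45 (adjusted p = 0.298 and 0.105). More calls were lost when a normal sample was left out, although these 5 differences changed less than without adenocarcinoma replicate 2. For H2-DMa the difference was 1.08 without normal replicate 1. The fit used 1 variance for both groups, and the normal samples had the lower SD in each of the 5 genes (for H2-DMa 0.171 against 0.705). Without normal replicate 1 only 2 class II genes were called, and without normal replicate 3 only 3. Cd74 and H2-DMb2 were called in all 8 fits that left out 1 sample, H2-Aa and H2-Ab1 in 6 each and H2-DMa in 5.

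Ciita was at 7.4, 8.0, 7.6 and 7.6 in adenocarcinoma and at 7.8, 7.6, 7.8 and 7.9 in normal mucosa, with a difference of -0.13 ± 0.134 (limma adjusted p = 0.462). Its groups overlapped, and the sample with the most Cd74, adenocarcinoma replicate 2, also had the highest Ciita value. The sign of this small difference turned to 0.0145 after cyclic loess and to 0.05 after centring the arrays on olfactory and vomeronasal receptor genes. Of 19 genes that regulate MHC transcription or carry the interferon gamma signal, 6 rose and 3 fell, against 18.2% and 23.6% of all genes, with a median of 0.05. The largest differences were those of the myeloid and B cell factor Irf8 (1.23 ± 0.204), the signalling inhibitor Socs3 (1.20 ± 0.182) and Rfx5 (0.80 ± 0.166), a subunit of the complex that binds the X box, with limma adjusted p of 0.00187, 0.00115 and 0.00583. Among members named after their values were seen, Rfxank, another subunit of that complex, fell by 0.70 ± 0.169 (adjusted p = 0.0117), the class I coactivator Nlrc5 by 0.40 ± 0.142 (0.0487) and Ifng itself by 0.35 ± 0.106 (0.0278), while the Y box factor Nfya rose by 0.58 ± 0.149 (0.0156) and Irf1, an activator of class I and loading genes, by 0.75 ± 0.141 (0.00364). The remaining subunit of the X box complex, Rfxap, was not called (0.025 ± 0.0926, 0.841). For Nlrc5 and Ifng the groups overlapped. Genes of this and the other lists were not followed under the other scalings or with samples left out, so how far their calls depend on these is not known.

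Several enzymes of the endosome that prepare class II peptides rose. Of 11 measured genes of class II processing and co-stimulation, 5 rose and 2 fell, against 18.2% and 23.6% of all genes (median 0.20). Cathepsin S (Ctss), which trims the invariant chain, was at 11.3 to 11.9 in the adenocarcinomas, against 7.7 to 8.0 in normal mucosa, a difference of 3.70 ± 0.133 (limma adjusted p = 3.43e-07). Cathepsin L (Ctsl) rose by 2.35 ± 0.148 and legumain (Lgmn) by 1.70 ± 0.137, each with groups that did not overlap (adjusted p = 7.67e-06 and 3.14e-05). Cathepsin B (Ctsb) and cathepsin D (Ctsd), of the same list, were not called, with differences of -0.15 ± 0.0872 and 0.025 ± 0.101 (adjusted p = 0.185 and 0.853). The 4 adenocarcinomas lay close together for Ctss, with replicate 2 at 11.9 and replicate 1 at 11.5, unlike the class II chains. Named after their values were seen, the co-stimulatory ligand Cd86 rose by 1.4 and Cd83, a marker of mature dendritic cells, by 0.50. The groups of Cd83 overlapped. Cd80 (-0.075) and Cd40 (0.20), of the same list, were not called. Also named after their values were seen, the thiol reductase Ifi30, which opens disulfides in endosomal antigens, fell by 0.88 and the ligand Icosl by 0.40.

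Markers of 3 cell types that express class II were measured beside these genes; those of macrophages rose, most of those of dendritic cells and B cells were not called, and their part in the result was not tested. In bulk samples more cells of a type and more RNA per cell cannot be told apart. Of 14 macrophage and monocyte markers, 13 rose and none fell (median 2.64), where 18.2% of all genes rose, led by lysozyme Lyz2 (4.33), the complement component C1qb (3.80) and Cd14 (3.70). The log2 of their summed intensity lay between 14.15 and 14.73 in the adenocarcinomas, against 11.43 to 11.56 in normal mucosa, where only Ccr2 lay at or below background on all 4 arrays. Of 11 dendritic cell markers, 2 rose, the actin bundler Fscn1 (2.18) and the integrin Itgax (1.93), which macrophages also express, and none fell (median 0), a share equal to the 18.2% of all genes called higher. The lineage markers Flt3, Zbtb46, Xcr1, Batf3 and Clec9a gave no call, and Clec9a lay at background in all 8 samples. The summed level of all 11 dendritic cell markers, Fscn1 and Itgax included, lay between 11.7 and 12.22 in the adenocarcinomas, against 10.9 to 11.2 in normal mucosa.

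B cell markers other than Blk were highest in adenocarcinoma replicate 2, as most class II genes were. This was not particular to B cell markers. Itgax (10.5), Emr1 (10.4) and Ccr7 (9.2) were also highest there, while Lyz2 and C1qc were highest in replicate 4. Ms4a1, which encodes CD20, was at 5.8, 9.1, 6.8 and 6.8 in adenocarcinoma and at 5.7 to 5.8 in normal mucosa, where it lay at background, as did Cr2. Cd79a was at 6.0, 8.6, 7.2 and 7.3 against 6.1 to 6.7. Only Cd79b was called among the 8 markers (1.20 ± 0.426, limma adjusted p = 0.0486), where 18.2% of all genes were called higher, and Ms4a1 was not (adjusted p = 0.0796). The summed level of the 8 genes was 11.8 in adenocarcinoma replicate 2, 9.97 to 10.75 in the other adenocarcinomas and 10.04 to 10.34 in normal mucosa.

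**Figure D2:**
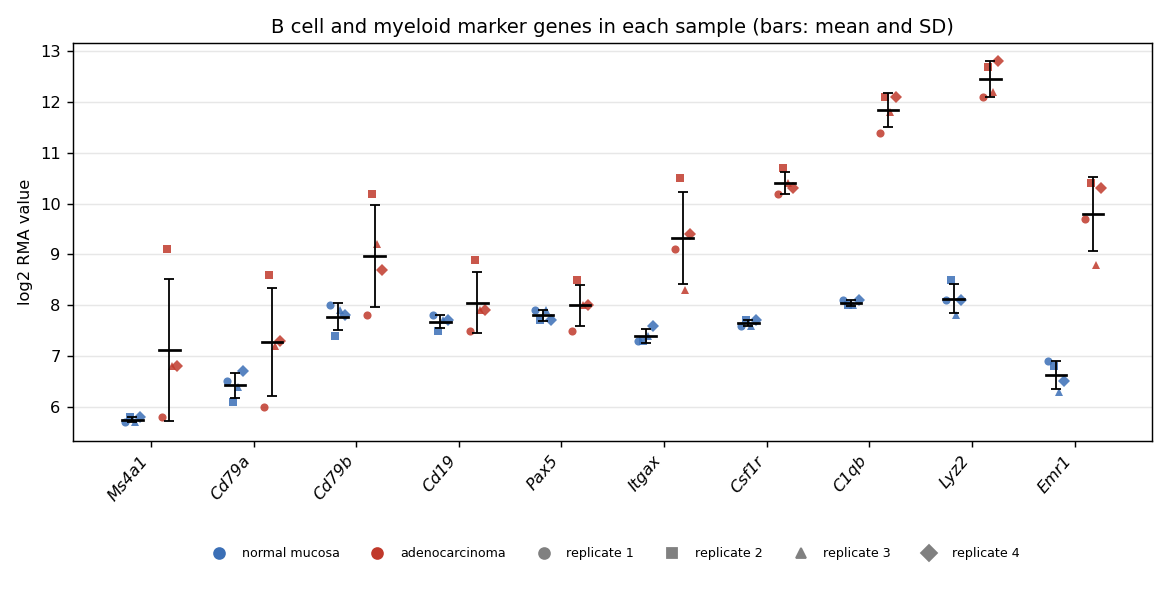
Log2 RMA values of 5 B cell markers and 5 myeloid markers in the same samples, with the mean and SD of each group. The B cell markers stand out in adenocarcinoma replicate 2 (squares), with Ms4a1 at 9.1 against 5.8 to 6.8 in the other adenocarcinomas. Csf1r, C1qb and Lyz2 are high in all 4 adenocarcinomas. Itgax and Emr1 vary more between them and are also highest in replicate 2, at 10.5 and 10.4.

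The classical class I heavy chains, the main presenters of cytosolic peptides, were far above background in both tissues and moved little. H2-K1 (probe set 10450075, chromosome 17 from 34132962 to 34137234 in the deposited table) was at 11.4, 11.4, 11.6 and 11.5 in adenocarcinoma and at 11.8, 11.9, 11.7 and 11.7 in normal mucosa. Its groups did not overlap and it fell by 0.30 ± 0.0888, 1.23-fold (limma adjusted p = 0.026). H2-D1 (probe set 10444780) was at 12.0, 12.0, 12.3 and 12.2 against 12.3 in each normal sample (-0.18 ± 0.0926, adjusted p = 0.15). The fall of H2-K1 was not called after centring on receptor genes (-0.13, adjusted p = 0.405), H2-D1 differed by 0 in that scaling, and it was called lower after median centring (-0.31, adjusted p = 0.0246). Without adenocarcinoma replicate 1 or 2, or normal replicate 1, H2-K1 was not called either (adjusted p = 0.054, 0.0636 and 0.0646).

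The light chain and the loading genes of class I showed no detectable difference. B2m was at 12.5, 12.7, 12.7 and 12.9 in adenocarcinoma and at 12.6, 12.8, 12.8 and 12.5 in normal mucosa (0.03 ± 0.114, limma adjusted p = 0.869). Tap1 was at 8.7, 9.3, 9.3 and 9.3 against 9.2, 9.3, 9.0 and 9.2 (-0.03 ± 0.149, adjusted p = 0.898), with adenocarcinoma replicate 1 below all other samples. Tap2 was at 9.2, 9.4, 9.6 and 9.6 against 9.2, 9.4, 9.1 and 9.2 (0.23 ± 0.116, adjusted p = 0.142). Tapbp was at 11.0, 11.2, 11.3 and 11.0 against 11.0, 11.1, 10.9 and 11.1 (0.10 ± 0.1, adjusted p = 0.433). In each of these 4 genes the groups overlapped. The signs of the small differences of B2m, Tap1 and Tapbp changed with the scaling of the arrays.

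**Figure D3:**
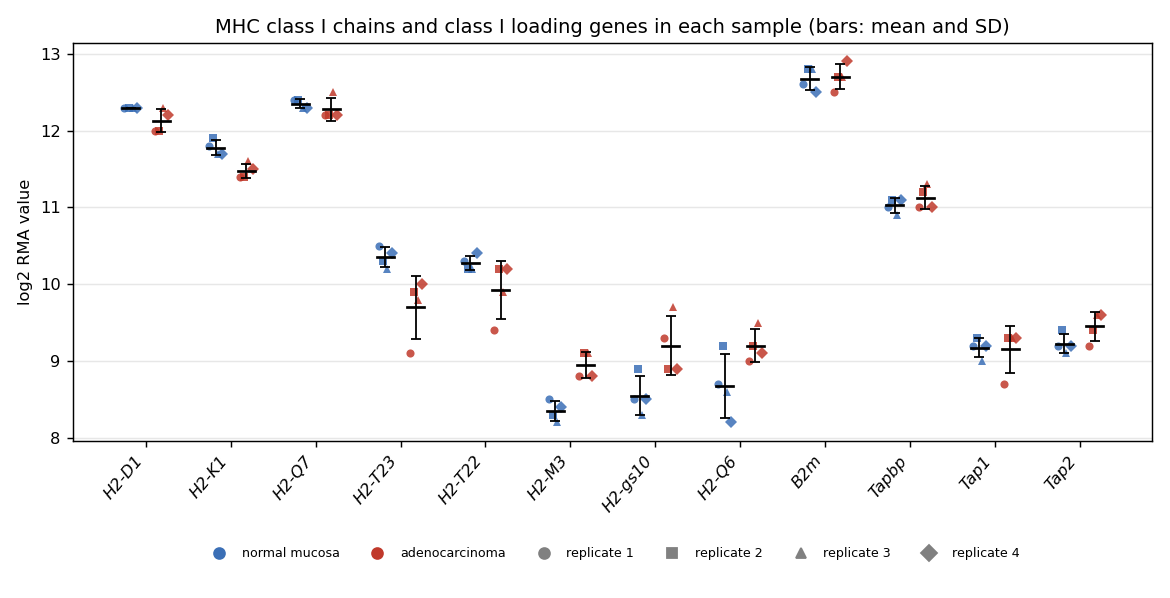
Log2 RMA values of 8 class I heavy chain genes and of the 4 class I light chain and loading genes, with the mean and SD of each group. Most pairs of groups lie close together, with H2-M3 and H2-gs10 higher and H2-T23 lower in adenocarcinoma, and B2m between 12.5 and 12.9 in all samples.

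Of 17 further genes of class I peptide processing, 4 rose and 1 fell, against 18.2% and 23.6% of all genes (median 0.08). The immunoproteasome subunit Psmb8 was at 8.1, 8.9, 8.4 and 8.7 in adenocarcinoma and at 7.7, 7.9, 7.6 and 7.7 in normal mucosa and rose by 0.80 ± 0.166 (limma adjusted p = 0.00583). Tapbpl, a peptide editor related to tapasin, rose by 0.65 ± 0.129 (0.00467), and the aminopeptidase Blmh by 0.48 ± 0.149 (0.0325). The subunit Psmb9, whose gene shares a start region with Tap1, went the other way and fell by 0.30 ± 0.106 (0.0475), and the third inducible subunit Psmb10 was not called (0.65 ± 0.243, 0.0575). The groups of Psmb9 overlapped, and Psmb9 and Psmb10 were named after their values were seen. The 3 inducible subunits therefore did not move alike.

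Among the non-classical class I genes, which are less polymorphic and often serve as ligands of innate receptors, H2-M3 rose. This heavy chain presents N-formylated peptides of bacterial and mitochondrial origin. H2-M3 (probe set 10445119, chromosome 17 from 37407179 to 37411434 in the deposited table) was at 8.8, 9.1, 9.1 and 8.8 in adenocarcinoma and at 8.5, 8.3, 8.2 and 8.4 in normal mucosa. The groups did not overlap, and the rise of 0.60 ± 0.112 (1.52-fold, limma adjusted p = 0.00349) was called under all 3 other scalings and in all 8 fits that left out 1 sample.

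Other non-classical genes gave small differences in both directions. In the Q region H2-gs10, whose accession carries the newer symbol H2-Q4, was at 9.3, 8.9, 9.7 and 8.9 against 8.5, 8.9, 8.3 and 8.5 and rose by 0.65 ± 0.199 (adjusted p = 0.0288), a call lost after median centring (0.0649) and cyclic loess (0.051). Its neighbour H2-Q8, whose annotated interval overlaps that of H2-gs10, was at 9.2, 9.1, 9.3 and 9.2 against 9.4, 9.5, 9.6 and 9.5 and fell by 0.30 ± 0.084 (adjusted p = 0.0211). Probe sets of overlapping intervals thus gave opposite calls. H2-Q6 differed by 0.53 ± 0.201 without a call (adjusted p = 0.062), and H2-Q7, which with H2-Q6 and H2-Q8 belongs to the Qa-2 family, was at 12.2 to 12.5 in the adenocarcinomas, against 12.3 to 12.4 in normal mucosa.

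In the T region H2-T23, the heavy chain of Qa-1 that binds the inhibitory receptor of NK and CD8 T cells, was at 9.1, 9.9, 9.8 and 10.0 in adenocarcinoma and at 10.5, 10.3, 10.2 and 10.4 in normal mucosa. It fell by 0.65 ± 0.187 (1.57-fold, limma adjusted p = 0.0236) with groups that did not overlap. The fall was not called after centring on receptor genes (adjusted p = 0.127) or without normal replicate 1 or 4 (0.0646 and 0.0613). H2-T22, a ligand of gamma-delta T cells, was at 9.4, 10.2, 9.9 and 10.2 against 10.3, 10.2, 10.2 and 10.4 (-0.35 ± 0.173, adjusted p = 0.127). In the deposited table the intervals of H2-T22 and H2-T23 overlap each other and those of H2-t9 and H2-Bl. The interval of H2-T10 overlaps those of H2-T22 and H2-Bl. The values of all these genes are uncertain where transcripts are shared. H2-Bl was at 7.4, 7.2, 7.3 and 7.3 against 7.5, 7.4, 7.7 and 7.7 and fell at the edge of the threshold (-0.28 ± 0.0983, adjusted p = 0.0492).

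Most M region genes were dim. H2-M1, H2-M10.1 and H2-M10.6 did not exceed the median of the background probes in any of the 8 samples, so the called fall of H2-M1 (-0.38, limma adjusted p = 0.033) is no measure of its transcript. H2-M1 read 5.5, 5.4, 5.8 and 5.4 in adenocarcinoma and 5.9, 6.0, 6.0 and 5.7 in normal mucosa. The H2-M10 genes encode class I chains known from the vomeronasal organ. H2-M10.2 was at 7.7, 7.7, 7.8 and 7.8 in adenocarcinoma and at 8.4, 8.1, 8.2 and 8.2 in normal mucosa and fell by 0.48 ± 0.0896 (adjusted p = 0.00365), and H2-M10.4 by 0.35 ± 0.106 (0.0278). H2-M10.4 was at 7.4, 7.4, 7.6 and 7.5 against 7.9, 7.6, 7.8 and 8.0. H2-M10.5, at 6.2, 6.1, 6.3 and 6.2 against 6.5, 6.7, 6.5 and 6.6, was called lower (adjusted p = 0.00944) but lay no more than 0.1 above the background median in any adenocarcinoma, so its fall has no measured size. Of these, H2-M10.2 alone was also called in the cyclic loess and receptor gene scalings. H2-M2 was at 6.0, 7.0, 6.1 and 7.1 in adenocarcinoma and at background in all normal samples, and it was not called (adjusted p = 0.164).

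The class I falls depended on how the arrays were scaled. Differences were negative for 24 of the 29 heavy chain genes in the deposited scaling and after median centring, for 18 with cyclic loess and for 15 when centred on receptor genes. The number called lower was 8, 19, 5 and 1 in that order. Median centring moved the median of all genes to -0.24, against -0.10 as deposited, -0.00559 with cyclic loess and 0.075 when centred on receptor genes. Of all calls over the 21626 genes, 43.6% were higher in adenocarcinoma as deposited, 24.8% after median centring, 54.8% with cyclic loess and 76.6% when centred on receptor genes. The class I median lay 0.10, 0.10, 0.09 and 0.10 below that of all genes in these scalings. The class II median lay 1.04, 1.04, 0.99 and 1.04 above it, and 5 class II genes were called higher in each. Both kinds of centring shift all genes by 1 amount and cannot change these distances, so cyclic loess alone bears on them.

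**Figure D4:**
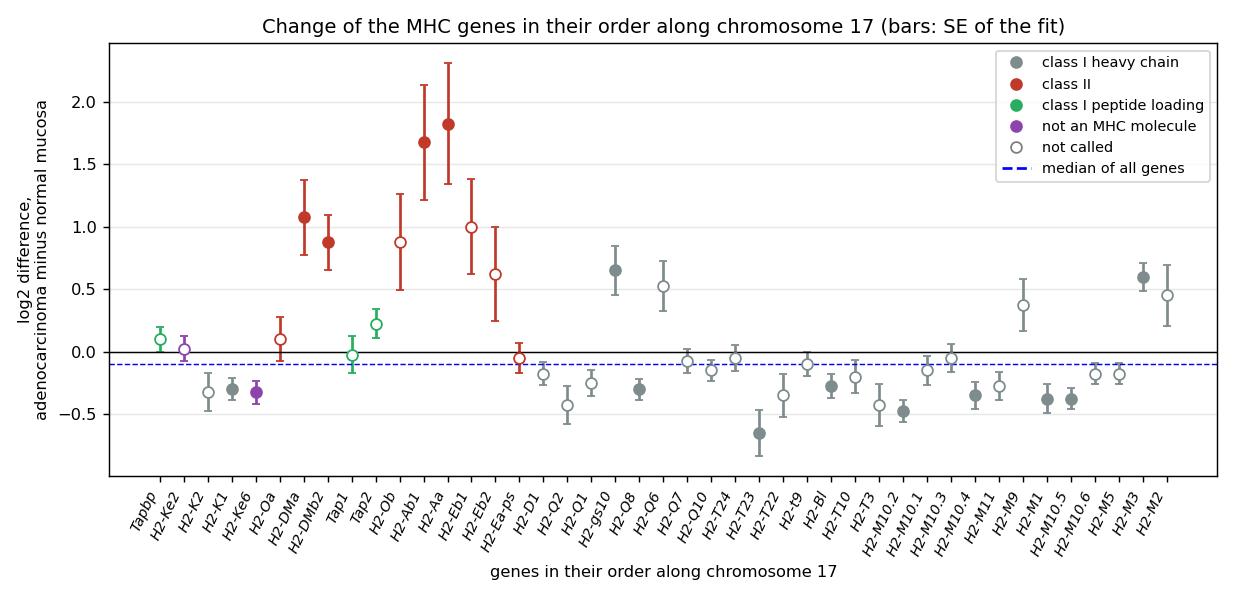
Log2 differences of the 43 members on chromosome 17 in their order along the chromosome, with the SE of the fit. Filled points were called at an adjusted p under 0.05. The called class II genes stand between 0.88 and 1.83, while Tap1 and Tap2, which lie among them, stand at -0.03 and 0.23, and most class I genes lie between -0.65 and 0.

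A class II gene and a class I gene were set against each other within each array, which does not depend on centring. The pairs were chosen with the differences of these genes known, so their tests restate the pattern above and are no independent evidence of it. H2-Aa minus H2-K1 was -1.23 ± 1.04 (SD, n = 4) in the adenocarcinomas and -3.35 ± 0.575 (SD, n = 4) in normal mucosa, a difference in change of 2.13 (two-sided exact permutation test, p = 0.0286, adjusted over the 2 pairs 0.0286). Cd74 minus B2m was -1.95 ± 0.995 and -4.05 ± 0.551, a difference in change of 2.10 (exact permutation p = 0.0286, adjusted 0.0286). The p of 0.0286 is the smallest that 70 assignments of the arrays allow. The first pair was not called without adenocarcinoma replicate 2, normal replicate 1 or normal replicate 3 (exact p = 0.0571 each, differences of 1.68, 1.98 and 1.98).

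Neighbours on the chromosome did not move alike. Tap1 and Tap2 lie between H2-DMb2 and H2-Ob in the deposited table and gave no call, while H2-DMb2 before them rose by 0.88 and H2-Ob after them differed by 0.88 without a call. Of the K region genes that encode no MHC molecule, H2-Ke2, now named Pfdn6, was at 9.6 to 10.0 against 9.8 to 9.9, and H2-Ke6 fell from 10.3, 10.3, 10.1 and 10.2 to 9.8, 10.0, 10.0 and 9.8 (-0.33 ± 0.0926, limma adjusted p = 0.0225).

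Cross-hybridisation bears on this family more than on most, since its members are near copies. The deposited table marked the probe sets of 44 of the 46 genes as unique (crosshyb_type 1) and those of H2-Q7 and H2-t9 as mixed (crosshyb_type 3). Of these, H2-Q7 read 12.2 to 12.5 and H2-t9 9.7 to 10.0, and neither was called. With unique probe sets alone, 2 class I genes were called higher and 7 lower, and 5 class II genes higher. H2-Q1 had 2 probe sets, both lower on average in adenocarcinoma, at 8.1 to 8.5 against 8.5 to 8.7 and at 7.8 to 8.1 against 8.0 to 8.3. H2-t9 also had 2, one at 9.7 to 10.0 against 9.9 to 10.0, the other at 7.0 to 7.2 against 7.4 to 7.7.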

How the data were processed

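The authors deposited log2 expression values made with RMA, per the submitters' processing notes; its version is not given in any source used here, and scanner files were not used. Values were rounded to 1 decimal (284448 of 284448, tolerance 1e-06), and the deposited annotated table and the series' value table did not differ (0 differences), so the former was used. Of 35556 probe sets, 28350 were gene probe sets; 24975 carried 1 symbol, giving 21626 genes, each represented by its probe set of highest mean. The deposited table supplied the gene names and positions. By accession, 43 of the 46 members matched RefSeq, 3 of them under another symbol. Groups came from the labels.

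Adenocarcinoma was compared with normal mucosa (4 arrays each, which limits the precision) over all 21626 genes with limma 3.58.1 in R 4.3.3 (lmFit, eBayes, two-sided), with Benjamini-Hochberg adjustment over all genes and calls at an adjusted p under 0.05. No filter on dim genes was used. A value at or below the array's median of 45 background control probe sets was taken as background. Differences between gene pairs were tested by exact permutation. The code was tested on simulated data. Alternatives were other scalings, an added 32 intensity units, leaving out the dimmest 30% of genes, other choices of probe set, trend and robust variance, array weights (statmod), a replicate block, noise of plus or minus 0.05, an adjusted p under 0.01, and fits without each sample. Members, roles, lists and tests were chosen with earlier results of these data known. All members could be named; values in every sample were given for those of central role and for called non-classical genes, and of each other list the 3 called genes of largest change were named, or the gene of smallest p where none was called. Tables and figures were made in Python 3.11.15 with pandas 2.3.3 and matplotlib 3.10.9. No slide or scan date was used here, so no batch was tested.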

Additional observations from a re-analysis of the deposited data

Results flagged for a closer look

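In 92 groups of 4 samples (46 genes in each tissue), 11 had a highest or lowest sample whose gap to its nearest neighbour was larger, as a share of the group's range, than Dixon's critical value for 4 samples; chance flags about 5% of groups, or 4.6 here. In 9 of the 11 the whole range was 0.3 or less, a few steps of the rounding to 1 decimal. These were H2-M10.3 in adenocarcinoma replicate 3 (7.9 against 7.8 in the others), H2-M10.6 in adenocarcinoma replicate 1 (5.9) and normal replicate 3 (6.3), H2-Q10 in adenocarcinoma replicate 2 (6.5), H2-Q7 in adenocarcinoma replicate 3 (12.5), H2-DMb2 in normal replicate 1 (7.6), H2-Eb2 in normal replicate 2 (6.8), H2-Ke2 in normal replicate 4 (9.9) and H2-t9 in normal replicate 1 (10.0). The other 2 had wider ranges. Tap1 was at 8.7 in adenocarcinoma replicate 1 and at 9.3 in each of the other adenocarcinomas, and H2-Q2 was at 9.4 in normal replicate 4 and at 8.8 to 8.9 in the other normal samples.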

How the results depend on the processing

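Class II genes called higher numbered 5; the count was 4 with a replicate block, 7 with array weights and 1 at an adjusted p under 0.01, and 2 to 7 when 1 sample was left out (2 without normal replicate 1, 3 without normal replicate 3). None was called lower under any alternative run. Class I genes called lower (8) numbered 19 after median centring, 5 after cyclic loess, 1 after centring on receptor genes, 5 without the dimmest 30% of genes, 2 at an adjusted p under 0.01 and 3 to 9 when 1 sample was left out, falling to 5 and 3 without adenocarcinoma replicates 1 and 2 and to 3, 4 and 4 without normal replicates 1, 3 and 4. Class I genes called higher (2) numbered 1 after median centring, cyclic loess, with a replicate block and at an adjusted p under 0.01, and 1 to 3 when 1 sample was left out (1 without adenocarcinoma replicate 1 and normal replicates 1, 3 and 4). The cause was not tested, beyond fewer samples or genes where these were left out.

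Paired by replicate number, both pair differences stayed at 2.13 and 2.10 with an exact p of 0.125, the smallest 4 pairs allow. With 1 sample left out they were 1.68 to 2.42 (H2-Aa minus H2-K1) and 1.65 to 2.35 (Cd74 minus B2m). The numbers were not shown to pair the samples: the deviations of same-numbered samples correlated at -0.175, 0.095, 0.158 and 0.038, adenocarcinoma replicates 2 and 3 correlating best with their own number, and the block moved the calls over all genes from 9041 to 8097. The block lost the calls of H2-DMa (adjusted p = 0.0503), H2-K1 (0.0607), H2-T23 (0.0557), H2-gs10 (0.0826) and H2-Bl (0.0606) and gave those of H2-Q2 (0.0316) and H2-T3 (0.0389).

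Signs turned only for genes that were not called. Under cyclic loess these were Ciita (0.0145), H2-M10.6 (0.0152), H2-M10.1 (0.01995), H2-M5 (0.0254), H2-Q10 (0.0586), H2-M10.3 (0.0678), H2-T24 (0.15), H2-Ea-ps (0.158) and H2-Ke2 (-0.0563). Under centring on receptor genes they were H2-M10.1 and H2-Q10 (0.025 each), Ciita (0.05), H2-t9 (0.075), H2-Q7 (0.1), H2-Ea-ps, H2-M10.3 and H2-T24 (0.125 each) and Tap1 (0.15). Median centring turned H2-Oa and Tapbp (-0.0375 each) and B2m and H2-Ke2 (-0.113 each), and array weights H2-Ke2 (-0.00875). With 1 sample left out, Tap1 ranged from -0.0833 to 0.125, H2-Oa from -0.025 to 0.242, H2-Ke2 from -0.025 to 0.108, B2m from -0.0417 to 0.0917 and H2-M10.3 from -0.142 to 0.025. Over all 46 genes and alternatives, 771 values neither took the opposite sign nor crossed the threshold, 73 lost and 31 gained a call.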

Other observations

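The class II genes also varied among the normal samples. Normal replicates 2 and 4 had more Cd74 (9.0 and 9.1, against 8.2 in both others), H2-Aa (8.7 and 9.1, against 8.0 and 7.9) and H2-Ab1 (8.9 and 9.4, against 8.2 and 8.6). H2-Eb1 (8.7 to 9.0), H2-DMa (7.4 to 7.8) and Ciita (7.6 to 7.9) did not follow this order, and the summed level of 14 macrophage markers was 11.43 to 11.56 in all 4 normal samples.

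T and NK cells carry the receptors that read MHC molecules. Of 14 markers of these cells none was called higher and 3 were called lower, a share near the 23.6% of all genes called lower. These were the CD8 chain Cd8a (-0.40), the granule protein Nkg7 (-0.35) and Klrb1c, which lay at background on all 8 arrays. The summed level of all 14 markers lay between 10.82 and 11.4 in the adenocarcinomas, against 11.1 to 11.21 in normal mucosa. Cd4 was at 7.4, 8.6, 7.6 and 7.8 in adenocarcinoma replicates 1 to 4 and at 7.3 to 7.7 in normal mucosa (0.28 ± 0.237, limma adjusted p = 0.362). Cd4 and Lck (8.1) were highest in adenocarcinoma replicate 2. Cd3d (7.0), Cd3e (8.7), Cd3g (8.6) and Gzmb (7.8) were highest in adenocarcinoma replicate 4 instead, and none of these genes was called. The transcript of Cd3e was at 7.9 to 8.7 and 8.2 to 8.3 (adjusted p = 0.705).

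The summed level of the 6 epithelial markers lay between 15.41 and 15.54 in the adenocarcinomas, against 15.43 to 15.52 in normal mucosa. This sum was set mainly by the keratins, the brightest of the 6. It hides the opposite differences of Cdh1 (-3.225) and Cldn7 (3.35), so it is no measure of epithelial content.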
